A study of Mus musculus with 9 samples.

Results

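S100a8, S100a9, Ngp, Camp, Ltf, Retnlg, Chil3, Ly6c2, Plac8 and Arg1 are genes used to recognise neutrophils and monocytes that have entered a tissue from the blood. These 10 genes were taken from a fixed list of symbols, matched to the gene identifiers of the counts, and belong to 55450 genes in all. Of the 10, 9 held enough counts to be tested, among 20892 genes that did, and Camp did not. RNA of manually dissected substantia nigra was sequenced from saline-perfused mice 5 weeks after lentiviral transduction, in 9 libraries of 3 groups of 3, lettered A to C in each group. The control libraries (CTR) came from CX3CR1-CreERT2 mice, whose tamoxifen-inducible Cre is driven in microglia and other CX3CR1-positive myeloid cells, and these mice received a GFP vector. The CX3 libraries came from mice of the same line that received a Synuclein-expressing vector. The DAT libraries came from DAT-Cre mice, whose Cre is driven in dopaminergic neurons, with the Synuclein-expressing vector. Both vectors are Cre-dependent and were injected into the nigra. The age of the mice is given as 8 weeks at transduction in one place of the study and as 9 weeks at purchase in another. Tamoxifen, given for 4 days, is described for the CX3CR1-CreERT2 mice, so mouse line, tamoxifen and vector cannot be told apart in any comparison of DAT with CTR, and neither can line and tamoxifen in a comparison of CX3 with DAT. CX3 and CTR share the line and differ in the vector.

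Neutrophils carry their proteins in granules that are filled while the cells mature in the bone marrow. S100a8 and S100a9 encode the subunits of calprotectin, a calcium- and metal-binding complex that makes up much of the neutrophil cytosol. Ngp, Camp and Ltf encode the neutrophilic granule protein, the cathelicidin precursor and lactoferrin, all of the secondary granules, and Retnlg encodes a resistin-like secreted protein of myeloid cells. Ly6c2 encodes Ly6C, the surface protein that marks inflammatory monocytes in the mouse and is also carried by subsets of lymphocytes and plasma cells. Plac8 is expressed by monocytes and by several lymphoid cells. Chil3, which encodes the chitinase-like protein Ym1, and Arg1, which encodes arginase-1 of the urea cycle, are widely used marks of alternatively activated macrophages. The healthy brain holds few such cells, and blood left in vessels is another source of these transcripts.

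Promoter sequences are shown for 4 of the genes, since these genes moved in different directions: S100a9 was lower in both CX3 and DAT than in CTR, Ly6c2 fell stepwise from CTR to CX3 to DAT, and Retnlg and Chil3 were highest in CX3. Each is the 250 bases before the RefSeq gene start on GRCm38.p6, written 5′ to 3′ on the strand of the gene, and 9 of the 10 genes had such an entry. The stretches are chr3:90695722-90695971 (minus strand) for S100a9, chr15:75111972-75112221 (minus strand) for the first start of Ly6c2, chr16:48872358-48872607 (plus strand) for Retnlg and chr3:106167565-106167814 (minus strand) for Chil3. Capitals mark every match, on either strand, to 4 motifs: the C/EBP core TTGCNNAA, the PU.1 core GAGGAA, the STAT core TTCNNNGAA and the TATA box core TATAAA. Overlapping matches were allowed.
S100a9: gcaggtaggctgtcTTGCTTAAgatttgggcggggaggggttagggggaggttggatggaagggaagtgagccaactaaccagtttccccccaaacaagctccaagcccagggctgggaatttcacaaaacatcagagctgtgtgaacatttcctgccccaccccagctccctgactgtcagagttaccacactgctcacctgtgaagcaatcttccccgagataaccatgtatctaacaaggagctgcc
Ly6c2: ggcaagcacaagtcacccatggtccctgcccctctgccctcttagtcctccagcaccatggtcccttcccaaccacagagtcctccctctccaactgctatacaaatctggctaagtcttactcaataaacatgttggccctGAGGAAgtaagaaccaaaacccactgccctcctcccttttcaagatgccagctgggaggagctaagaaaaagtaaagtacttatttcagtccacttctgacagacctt
Retnlg: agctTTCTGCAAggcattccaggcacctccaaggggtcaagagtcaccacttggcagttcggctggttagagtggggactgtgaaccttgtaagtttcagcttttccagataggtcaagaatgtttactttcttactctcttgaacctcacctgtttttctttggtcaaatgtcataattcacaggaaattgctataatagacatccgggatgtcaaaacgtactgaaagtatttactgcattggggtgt
Chil3: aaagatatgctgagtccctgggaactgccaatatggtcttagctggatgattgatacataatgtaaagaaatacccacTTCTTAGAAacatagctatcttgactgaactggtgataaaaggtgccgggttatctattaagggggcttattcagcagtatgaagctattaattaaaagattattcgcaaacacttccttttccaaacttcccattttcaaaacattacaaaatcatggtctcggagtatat
S100a9 and Retnlg each held 1 C/EBP core, Ly6c2 held 1 PU.1 core and Chil3 held 1 STAT core. Among the 11 promoters listed for the 9 genes, 5 held a C/EBP core, 5 a PU.1 core, 1 a STAT core and 1 a TATA box core. The 11 include 2 starts of Ly6c2 whose stretches overlap and share a PU.1 core, so they are not separate promoters. Over 32851 mouse promoters of the same length, with those of a single chromosome left out, the shares were 9.56%, 23.3%, 7.02% and 12.4%. A match is a run of letters and not a measured binding site.

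Reads counted on genes numbered 21592817 to 39475428 per library, and 3 counts, taken as the smallest countable signal, equal 0.0779 to 0.151 CPM (counts scaled to a common library size by TMM factors). Floors, and the exact intervals on ratios of summed counts, cover counting error only. The intervals on log2 differences rest on the standard errors of edgeR's fit, which also take in the spread between libraries. The squared difference in counts between 2 libraries of a group was 1.46 to 1.80 times that of sampling alone in CTR, 2.52 to 6.50 in CX3 and 2.26 to 16.5 in DAT, where library B stood apart. How many animals gave a library is not stated, so p-values measure the spread between libraries, which may be technical. The dopaminergic genes Th (68.4 to 101 CPM over the group means) and Slc6a3 (91.1 to 196 CPM) were expressed in all groups. Neither vector's transcript nor Cre is among the counted genes, so the counts hold no direct check of the group labels. Cx3cr1, the microglial gene whose promoter drives the Cre of CTR and CX3, had mean levels of 102 CPM in CTR, 44.6 in CX3 and 83.4 in DAT. In tissue RNA, fewer cells of a type and less RNA per cell cannot be told apart.

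The calprotectin genes were about 3-fold lower in both groups with the Synuclein-expressing vector than in CTR. S100a8 (ENSMUSG00000056054.9, chr3:90668978-90670035, plus strand) had 30, 18 and 27 counts in CTR libraries A to C, 9, 11 and 11 in CX3 and 12, 4 and 5 in DAT. Every CTR library lay above every library of the other groups, while CX3 and DAT overlapped. Its level was 0.793 ± 0.262 CPM in CTR, 0.279 ± 0.0425 in CX3 and 0.250 ± 0.0692 in DAT (SD, n = 3). In edgeR's quasi-likelihood test with Benjamini-Hochberg adjustment over all genes tested, S100a8 fell by 1.48 ± 0.333 on the log2 scale (SE) from CTR to CX3 (adjusted p = 0.00416) and by 1.56 ± 0.365 from CTR to DAT (adjusted p = 0.00210).

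S100a9 (ENSMUSG00000056071.12, chr3:90692632-90695721, minus strand), whose promoter is printed above, had 36, 56 and 42 counts in CTR, 22, 13 and 16 in CX3 and 20, 9 and 5 in DAT. Again the CTR libraries stood apart from the rest. In CPM this was 1.37 ± 0.179, 0.454 ± 0.103 and 0.407 ± 0.169 (SD, n = 3). S100a9 was 3.00-fold lower in CX3 than in CTR (log2 difference -1.59 ± 0.268 SE, edgeR adjusted p = 0.000509) and 3.23-fold lower in DAT (-1.69 ± 0.294, adjusted p = 0.000192). The 2 genes lie 22.6 kb apart on opposite strands with no other protein-coding gene between them. CX3 and DAT were not shown to differ for either gene, with log2 differences of 0.080 (95% interval -0.84 to 1.00) for S100a8 and 0.10 (-0.64 to 0.84) for S100a9.

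**Figure D1:**
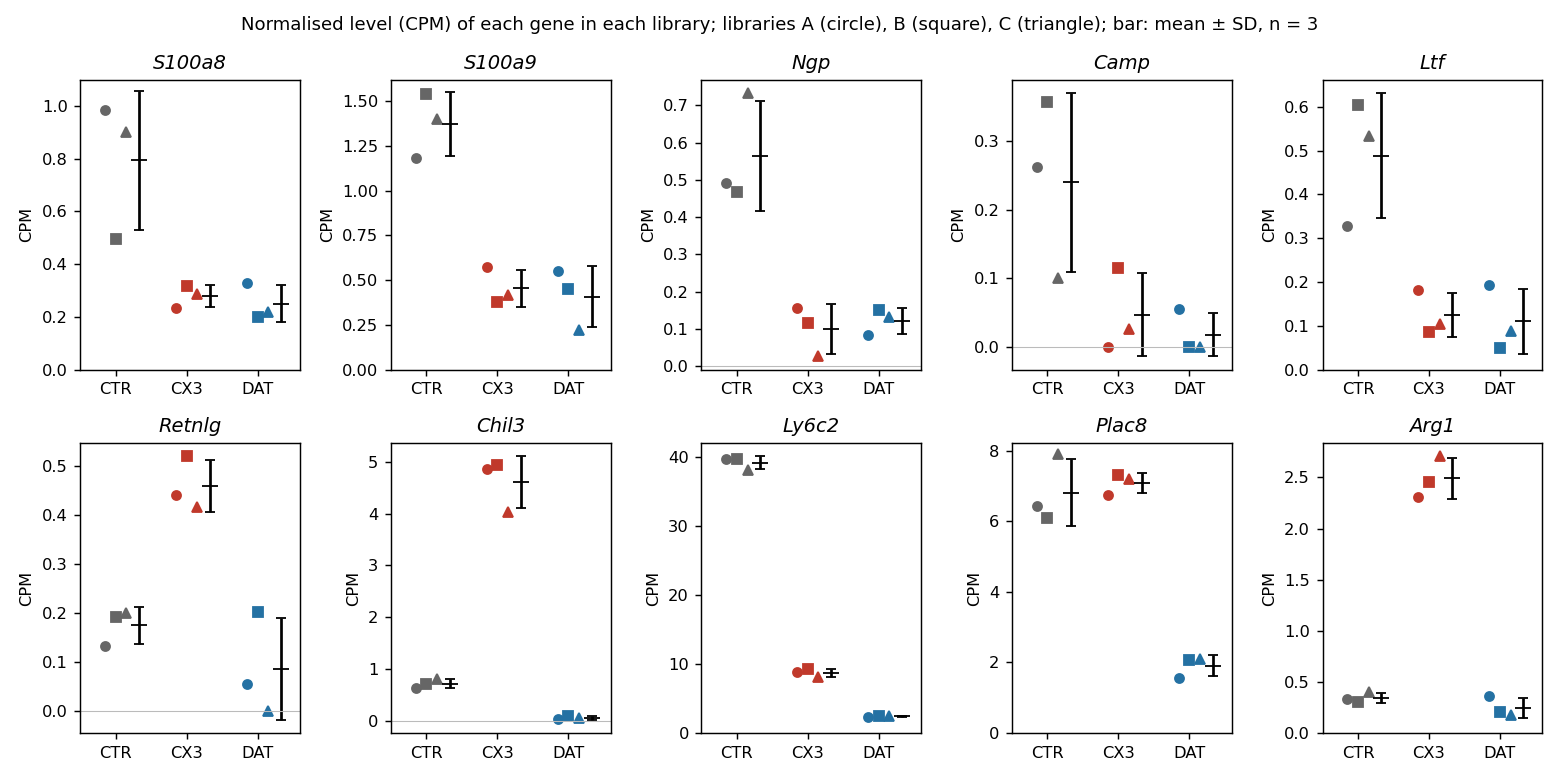
Normalised level in CPM (vertical axes, linear) of each of the 10 genes in each library of the groups CTR, CX3 and DAT; circles, squares and triangles are libraries A, B and C, and bars show the mean ± SD of 3 libraries. S100a8, S100a9, Ngp, Ltf and Ly6c2 sit highest in the 3 CTR libraries, Retnlg, Chil3 and Arg1 sit highest in the 3 CX3 libraries, and Plac8 is lowest in DAT.

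The secondary granule genes were also highest in CTR, at lower counts. Ngp (ENSMUSG00000032484.8, chr9:110419747-110423012, plus strand) had 15, 17 and 22 counts in CTR, 6, 4 and 1 in CX3 and 3 in each DAT library. No CX3 or DAT library reached the lowest CTR library, and the DAT libraries sat at the floor of 3 counts. Its level was 0.564 ± 0.147 CPM in CTR, 0.0991 ± 0.0664 in CX3 and 0.122 ± 0.0354 in DAT (SD, n = 3). Ngp was lower in CX3 by a log2 difference of -2.46 ± 0.453 SE (edgeR adjusted p = 0.000991) and in DAT by -2.25 ± 0.484 (adjusted p = 0.00110). By summed counts, with exact 95% counting intervals, CTR exceeded CX3 5.65-fold (2.92 to 12) and DAT 4.90-fold (2.40 to 11.3).

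Lactoferrin, an iron-binding protein of the same granules, was also lowest in the groups with the Synuclein-expressing vector. Ltf (ENSMUSG00000032496.7, chr9:111019271-111042767, plus strand) had 10, 22 and 16 counts in CTR, 7, 3 and 4 in CX3 and 7, 1 and 2 in DAT. The groups CTR and CX3 did not overlap in CPM, and neither did CTR and DAT. The mean level was 0.489 ± 0.143, 0.124 ± 0.0506 and 0.110 ± 0.0734 CPM (SD, n = 3), a fall of 1.94 ± 0.438 on the log2 scale in CX3 (SE, edgeR adjusted p = 0.00414) and of 1.95 ± 0.480 in DAT (adjusted p = 0.00295). Between CX3 and DAT, the log2 difference was 0.0048 for Ltf (95% interval -1.42 to 1.43) and -0.21 for Ngp (-1.62 to 1.21), intervals that span more than a 2-fold change either way.

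Camp (ENSMUSG00000038357.10, chr9:109847379-109849617, minus strand), which encodes the antimicrobial cathelicidin, had 8, 13 and 3 counts in CTR, 0, 4 and 1 in CX3 and 2, 0 and 0 in DAT. It did not pass the filter on low counts and was not tested. Every CTR library lay above every DAT library, while CTR and CX3 overlapped. The 24 counts of CTR against 5 of CX3 give a ratio of 5.53 (exact 95% counting interval 2.07 to 18.6), and against 2 of DAT a ratio of 9.81 (2.43 to 85.6). Camp lies 570.1 kb from Ngp, with 8 protein-coding genes between them.

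Retnlg departed from the other neutrophil genes. Retnlg (ENSMUSG00000022651.6, chr16:48872621-48874496, plus strand) had 4, 7 and 6 counts in CTR, 17, 18 and 16 in CX3 and 2, 4 and 0 in DAT. All CX3 libraries lay above all others, and DAT overlapped CTR. Its level was 0.175 ± 0.0376 CPM in CTR, 0.459 ± 0.0539 in CX3 and 0.0853 ± 0.104 in DAT (SD, n = 3). Retnlg was higher in CX3 than in CTR (log2 difference 1.36 ± 0.440 SE, edgeR adjusted p = 0.0308) and higher in CX3 than in DAT (2.53 ± 0.560, adjusted p = 0.00141), which by summed counts is a 6.03-fold excess (exact 95% counting interval 2.59 to 17.2). The first of these calls was lost when any CTR or CX3 library was left out (adjusted p = 0.0576 to 0.117) and in DESeq2's test (adjusted p = 0.0556). The difference between DAT and CTR did not pass the test (-1.16 ± 0.686, adjusted p = 0.160), and it passed without DAT library B (-2.27, adjusted p = 0.0282).

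Ly6c2 (ENSMUSG00000022584.14, chr15:75108158-75111970, minus strand), the gene of the monocyte surface protein Ly6C, was the most strongly expressed of the 10 genes per kilobase in CTR, and its level differed between all 3 groups. It had 1210, 1448 and 1144 counts in CTR, 339, 319 and 311 in CX3 and 85, 48 and 56 in DAT. The groups formed 3 separate levels, of 39.2 ± 0.935, 8.70 ± 0.564 and 2.40 ± 0.0644 CPM (SD, n = 3). Ly6c2 was 4.51-fold lower in CX3 than in CTR (log2 difference -2.17 ± 0.0612 SE, edgeR adjusted p = 5.14e-12) and 16.4-fold lower in DAT than in CTR (-4.03 ± 0.0798, adjusted p = 6.43e-14). CX3 exceeded DAT 3.63-fold (1.86 ± 0.0919, adjusted p = 7.35e-10). Of the 76-base stretches of Ly6c2 exons, 9.32% also occur in Ly6c1, the neighbouring paralog expressed by endothelial cells, so a part of the reads cannot be placed on either gene.

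Plac8 (ENSMUSG00000029322.12, chr5:100553725-100572245, minus strand) had 196, 222 and 237 counts in CTR, 260, 253 and 276 in CX3 and 57, 41 and 48 in DAT. CTR and CX3 overlapped, at 6.81 ± 0.958 and 7.08 ± 0.293 CPM, and the DAT libraries lay apart at 1.91 ± 0.302 CPM (SD, n = 3). The log2 difference between CX3 and CTR was 0.060 (95% interval -0.19 to 0.31), and it did not pass the test (edgeR adjusted p = 0.733). Plac8 was 3.64-fold lower in DAT than in CTR (log2 difference -1.87 ± 0.147 SE, adjusted p = 8.14e-08) and 3.80-fold higher in CX3 than in DAT (1.92 ± 0.144, adjusted p = 5.09e-08). Of these monocyte genes, Ly6c2 was thus called lower in CX3 than in CTR and Plac8 was not.

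Of the 10 genes, Chil3 and Arg1 rose most in CX3 over CTR. Chil3 (ENSMUSG00000040809.10, chr3:106147554-106167564, minus strand) had 19, 26 and 24 counts in CTR, 187, 171 and 155 in CX3 and 1, 2 and 1 in DAT. The 3 groups did not overlap, and the DAT libraries were below the floor of 3 counts. In CPM this was 0.713 ± 0.0881, 4.61 ± 0.499 and 0.0573 ± 0.0384 (SD, n = 3). Chil3 was 6.43-fold higher in CX3 than in CTR (log2 difference 2.69 ± 0.173 SE, edgeR adjusted p = 5.81e-08). From CTR to DAT it fell by 3.71 ± 0.438 on the log2 scale (adjusted p = 4.95e-06), and CX3 exceeded DAT by 6.40 ± 0.300 (adjusted p = 4.51e-10). Since DAT held 4 counts in all, the ratio of CX3 to DAT is known within wide limits, at 91.0 (exact 95% counting interval 35.3 to 335). Of its 76-base stretches, 12.5% occur elsewhere, 7.54% in the paralog Chil4, which had 2 counts in CTR and 0 in both other groups.

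Arg1 (ENSMUSG00000019987.9, chr10:24915221-24927484, minus strand) had 10, 11 and 12 counts in CTR, 89, 85 and 104 in CX3 and 13, 4 and 4 in DAT. The CX3 libraries stood apart, and CTR and DAT overlapped. Its level was 0.344 ± 0.0507 CPM in CTR, 2.49 ± 0.201 in CX3 and 0.244 ± 0.0979 in DAT (SD, n = 3). Arg1 was 7.23-fold higher in CX3 than in CTR (log2 difference 2.85 ± 0.225 SE, edgeR adjusted p = 4.72e-07) and 9.35-fold higher than in DAT (3.22 ± 0.250, adjusted p = 7.26e-08). DAT and CTR were not shown to differ (-0.37, 95% interval -1.14 to 0.40, adjusted p = 0.441).

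From CTR to CX3, 5 of the 9 tested genes were called lower (S100a8, S100a9, Ngp, Ltf and Ly6c2) and 3 higher (Retnlg, Chil3 and Arg1), at an adjusted p under 0.05. Over all genes tested, 16.5% were called lower and 14% higher. All 8 calls were also at least 2-fold, a rule met by 2.26% of all genes lower and 1.33% higher. From CTR to DAT, 7 of the 9 were called lower (all but Retnlg and Arg1) and 0 higher, beside 27.9% lower and 32% higher over all genes, and the 7 were at least 2-fold, beside 12% and 3.88%. With no adjustment the count higher was also 0, as it was in DESeq2's test. From DAT to CX3, 5 of the 9 were higher (Retnlg, Chil3, Ly6c2, Plac8 and Arg1) and 0 lower in edgeR and in DESeq2, beside 27.6% and 31.3%, and again at least 2-fold in each case, beside 11% and 4.37%. The 3 comparisons share libraries and are not independent of one another. The filter on low counts bears on these tallies: Ngp and Ltf reached its level in the 3 CTR libraries and in 0 others, S100a8 in the 3 CTR libraries and 1 of CX3, and Retnlg in the 3 CX3 libraries and 0 others. These 4 genes could enter the test only with a group in which they are high, so their part of the count is tied to their direction. The shares of all genes are to be read only beside S100a9, Chil3, Ly6c2, Plac8 and Arg1. Of these, S100a9 and Ly6c2 were called lower and Chil3 and Arg1 higher from CTR to CX3. From CTR to DAT, S100a9, Chil3, Ly6c2 and Plac8 were called lower, and from DAT to CX3, Chil3, Ly6c2, Plac8 and Arg1 higher.

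**Figure D2:**
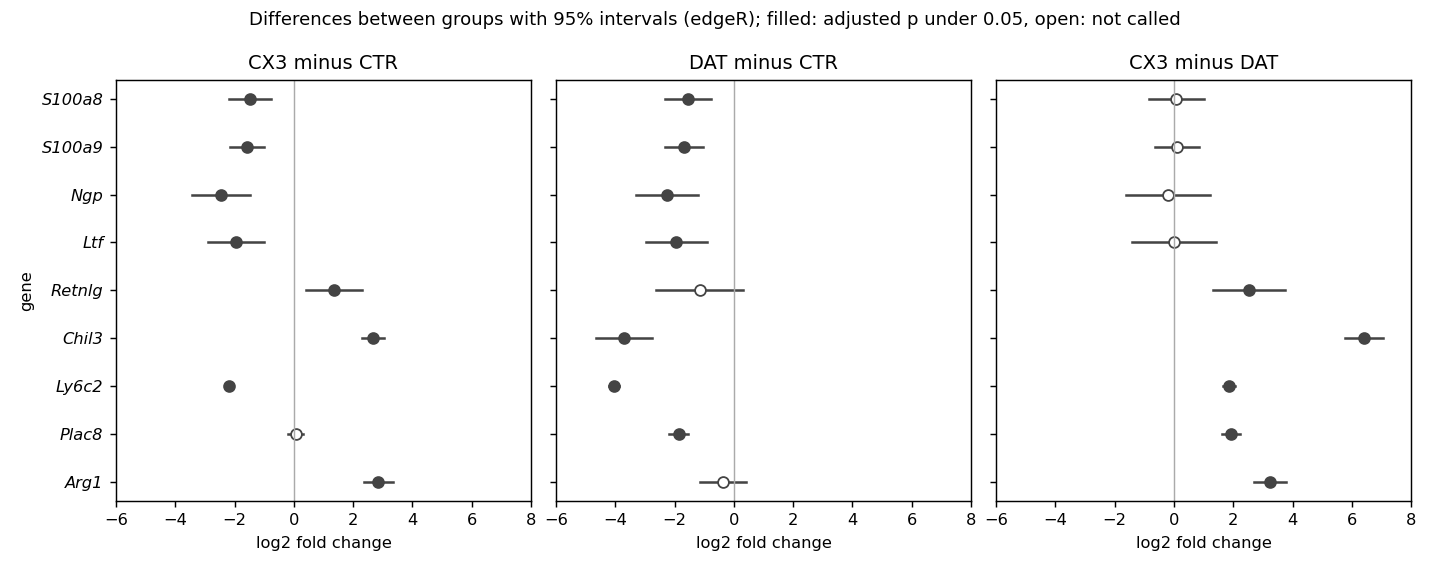
Log2 fold change (horizontal axes) of the 9 tested genes for CX3 minus CTR, DAT minus CTR and CX3 minus DAT; points are edgeR estimates with 95% intervals, filled where the adjusted p was under 0.05. The calprotectin and granule genes lie left of 0 in the first 2 panels and on 0 in the last one, where Chil3 reaches 6.40.

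Levels of different genes were compared per kilobase of exon. In CTR the order ran from Ly6c2 (14.3 ± 0.341 CPM per kb) through Plac8 (4.28 ± 0.602), S100a9 (2.63 ± 0.344) and S100a8 (1.14 ± 0.378) to Arg1 (0.154 ± 0.0227) and Ltf (0.142 ± 0.0415). Neighbours at the low end, Arg1 and Ltf among them, did not differ beyond their spread. In CX3, Plac8 came first with 4.45 ± 0.184 CPM per kb, ahead of Ly6c2 (3.18 ± 0.206) and Chil3 (2.82 ± 0.306), and the latter were within their spread of each other. In DAT, Plac8 (1.20 ± 0.190), Ly6c2 (0.876 ± 0.0235) and S100a9 (0.779 ± 0.324) led, with S100a9 spread across the level of Ly6c2. Chil3 thus went from 0.437 ± 0.0540 CPM per kb in CTR to 2.82 in CX3 and 0.0351 ± 0.0235 in DAT.

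The nearest relatives of these genes did not all move with them. Retnla, the resistin-like relative of Retnlg that is a mark of alternatively activated macrophages, had 3 counts in CTR, 195 in CX3 and 2 in DAT over 3 libraries each, a ratio of CX3 to CTR of 56.4 (exact 95% counting interval 19.0 to 276). Retn, which encodes resistin, went the other way, with 45, 13 and 4 counts (log2 difference of CX3 from CTR -1.96, edgeR adjusted p = 0.00130). Chil1, the chitinase-like relative of Chil3 expressed by astrocytes, fell from 53.9 CPM in CTR to 22.0 in CX3 and 18.2 in DAT. Ly6c1 had 72.6, 63.1 and 34.5 CPM, so that the fall from CTR to CX3 was 0.20 on the log2 scale where that of Ly6c2 was 2.17. In the Ly6 family, 6 of 7 tested genes were lower in CX3 than in CTR, with Ly6d (-1.90), Ly6a (-0.65) and Ly6i (-0.47) next after Ly6c2. Ly6g, the defining surface gene of neutrophils, had 5 counts in CTR, 1 in CX3 and 0 in DAT. Of 10 tested S100 genes, 4 were lower in CX3 than in CTR and 6 were not called, and after S100a9 and S100a8 these were S100a6 (-0.35) and S100a1 (-0.26). All 10 were lower in DAT.

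Other neutrophil genes were few in counts. Of 20 listed granule and surface genes, 8 could be tested, and 1 was higher and 1 lower in CX3 than in CTR. The lower one was Lcn2, the siderophore-binding lipocalin of neutrophil granules and of reactive astrocytes, with 20.4 CPM in CTR, 2.74 in CX3 and 1.46 in DAT (log2 difference -2.90 in CX3, edgeR adjusted p = 9.01e-12). The higher one was Hp, which encodes haptoglobin, with 0.415, 0.860 and 0.428 CPM (1.05, adjusted p = 0.00493). The 12 genes that could not be tested held 1 to 28 counts over the CTR libraries, 0 to 17 over CX3 and 0 to 12 over DAT. By mean CPM, all of these but Trem1 and Stfa2l1 were highest in CTR, at counts too low to test. From CTR to DAT, 4 of the 8 were lower and 1 higher, and from DAT to CX3, 5 were higher and 1 lower.

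Of 20 further genes listed for monocytes, all tested, 7 were higher and 4 lower in CX3 than in CTR. In DAT, 4 were higher and 14 lower than in CTR. From DAT to CX3, 14 were higher and 4 lower. Which cells expressed these genes was not tested, and the paper gives Treml4 as a marker of cross-presenting dendritic cells. The largest differences between CX3 and CTR among those called were in Clec4e, a receptor for damaged cells and microbial glycolipids, with 22 counts in CTR, 96 in CX3 and 4 in DAT (log2 difference 1.90, edgeR adjusted p = 0.000664), in F10, which encodes coagulation factor X, with 23, 96 and 4 counts (1.84, adjusted p = 0.00113), and in Treml4 with 25, 91 and 15 counts (1.65, adjusted p = 0.00248). Ccr2, the receptor by which inflammatory monocytes leave the bone marrow, had 3.79 CPM in CTR, 9.72 in CX3 and 2.17 in DAT, and was 1.35 higher on the log2 scale in CX3 than in CTR (adjusted p = 9.13e-07). In the genes just named CX3 was highest, as in Chil3, Arg1 and Retnlg, while Ly6c2 was highest in CTR. The 4 called lower in CX3 than in CTR were Ms4a4c (-0.86), Nr4a1 (-0.73), Fn1 (-0.67) and Vcan (-0.58). Ms4a4c was highest in CTR like Ly6c2, with 6.3 CPM in CTR, 3.4 in CX3 and 1.7 in DAT. The median log2 difference of the list was -0.059 for CX3 minus CTR and -1.45 for DAT minus CTR.

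Attractants and their receptors were counted next. Of 15 attractant genes, 10 were tested, 4 of them lower in CX3 than in CTR and 6 lower and 2 higher in DAT. The 4 were Cxcl5 and Ppbp, ligands of the neutrophil receptor Cxcr2 (log2 differences -1.09 and -0.92), Ccl12 (-0.35) and Il34 (-0.27). Leaving out CTR library B or C or CX3 library B or C left 2 of these calls, Cxcl5 and Il34. Ccl2, the main ligand of Ccr2, had 5.26 CPM in CTR, 5.32 in CX3 and 1.02 in DAT, and did not pass the test between CX3 and CTR (edgeR adjusted p = 0.924). Csf3, the growth factor of neutrophils, had 5, 4 and 0 counts, and its receptor gene Csf3r had 29.7, 25.4 and 11.3 CPM. Of 12 receptor genes, 10 were tested, with 5 higher and 2 lower in CX3 than in CTR and 7 lower and 3 not called in DAT. After Ccr2, the higher ones with the largest differences were Fpr2 (1.11) and Fpr1 (1.01), receptors for formylated peptides, and Ccr1 (0.70). The 2 lower ones were C5ar1 (-0.68) and Csf1r (-0.58). Cxcr2 had 9, 6 and 4 counts and was not tested.

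Of 10 transcription factor genes of granulocytes and monocytes, 9 were tested, and 4 were lower and 1 higher in CX3 than in CTR. Cebpd (-0.97), Cebpa (-0.54) and Nr4a1 (-0.73) were lower, and Irf8, which directs monocyte and dendritic cell development, was higher (0.74, edgeR adjusted p = 8.45e-07). In DAT, 7 were lower and 1 higher than in CTR. Cebpe, needed for the secondary granules that hold Ngp, Camp and Ltf, had 23 counts in CTR, 4 in CX3 and 0 in DAT and was not tested. Of 14 genes of arginine use and alternative activation, which include Arg1 and Chil3, 13 were tested, with 6 higher and 3 lower in CX3 than in CTR and 3 in each direction in DAT. The 6 calls in DAT fell to 3 without CTR library B, DAT library A or DAT library C, and to 4 without CTR library A. Between CX3 and CTR, Retnla, Arg1, Chil3 and Pdcd1lg2 (1.14, adjusted p = 0.0205) differed most, and were higher in CX3. The 3 lower ones were Slc7a2 (-0.53), Ass1 (-0.40) and Odc1 (-0.24). Arg2, the mitochondrial arginase, had 1.41 CPM in CTR, 1.35 in CX3 and 1.47 in DAT, and Nos2, whose product uses the same substrate as Arg1, had 0.682, 1.05 and 1.08. Nos2 was called higher in DAT than in CTR (0.69, edgeR adjusted p = 0.044) and not between CX3 and CTR (adjusted p = 0.090). The call in DAT was lost without CTR library A or B, CX3 library C, or DAT library A or C.

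**Figure D3:**
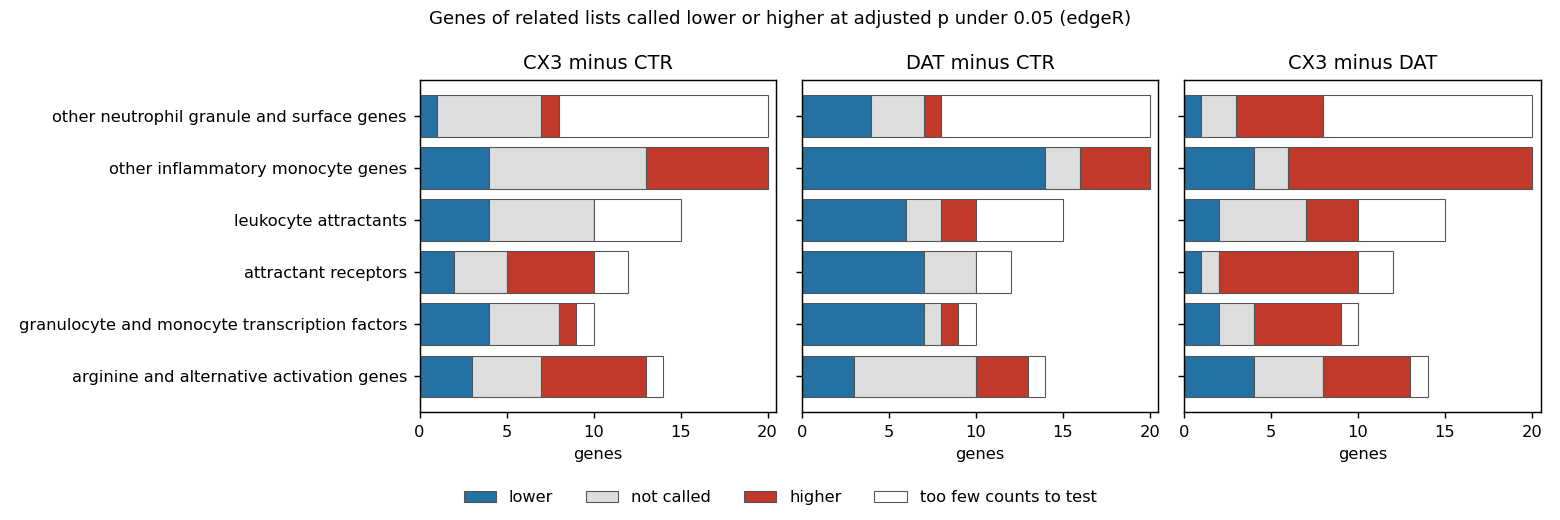
Number of genes (horizontal axes) of 6 related lists called lower, not called or called higher at an adjusted p under 0.05 in edgeR, or with too few counts to test, in each of the 3 comparisons. From CTR to DAT, 14 of 20 monocyte genes were lower, where from DAT to CX3, 14 were higher.

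Markers of other cells differed between the groups as well, given here as CPM summed over 6 genes per cell type, with the range over the libraries of a group. B and plasma cell markers summed to 309.6 to 328 in CTR, 80.5 to 85.4 in CX3 and 25.9 to 28.4 in DAT, the same order as Ly6c2. The sum was mostly Jchain, the joining chain gene of antibodies (298, 71.9 and 8.79 CPM). Jchain was the only one of the 6 markers called higher in CX3 than in DAT, while 4 were not called and Pax5 was lower (8.40 against 15.7 CPM). T cell markers summed to 50.6 to 52.9, 43.4 to 45.3 and 12.2 to 14.3, the order of Plac8 in that DAT was far below both others. NK cell markers summed to 7.39 to 8.38, 4.62 to 4.90 and 1.32 to 1.97. Of the 3 NK markers tested, 1 was lower in CX3 than in CTR, Gzma (4.02, 0.888 and 1.02 CPM). Klre1 and Prf1 were not called between CX3 and CTR. Ncr1, Klrb1c and Klra7 were not tested, and had 14, 17 and 12 counts in CTR and 30, 30 and 27 in CX3. Dendritic cell markers summed to 30.3 to 31.6, 35.6 to 37.7 and 27.7 to 31.3, and were highest in CX3 like Chil3, Arg1 and Retnlg. The part of these cells in the levels of Ly6c2, Plac8, Chil3, Arg1 and Retnlg was not tested.

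Red blood cell genes, mostly globin genes, were taken as a rough sign of blood left in the tissue. They summed to 242.5 to 267 CPM in CTR, 94.5 to 108 in CX3 and 187 to 266 in DAT. CX3 was below CTR here as for S100a8, S100a9, Ngp and Ltf. DAT libraries A to C held 187, 266 and 196 CPM, with B inside the range of CTR and A and C below it. Whether the globin genes came from blood alone, and the part of residual blood in the neutrophil genes, were not tested. Microglia markers summed to 525 to 532, 361 to 366 and 346 to 358, and perivascular macrophage markers to 47.4 to 50.6, 42.5 to 46.9 and 63.0 to 70.4. Eosinophil and basophil markers summed to 6.95 to 8.30, 6.96 to 7.55 and 2.81 to 3.43, and mast cell markers to 19.5 to 22.5, 18 to 21.2 and 38.1 to 40.2. Of the tissue itself, choroid plexus markers summed to 46.5 to 47.5 in CTR, 1475 to 1584 in CX3 and 874 to 1044 in DAT, and endothelial markers to 271 to 272, 347 to 353 and 343 to 349.8. Dopaminergic neuron markers summed to 411 to 414, 590.2 to 598 and 350.4 to 354, astrocyte markers to 5552 to 5571, 3455 to 3668 and 3510 to 3703, and oligodendrocyte markers to 20180 to 20260, 21400 to 21790 and 14590 to 15520. Whether these differences in tissue content bear on the 10 genes was not tested.

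**Figure D4:**
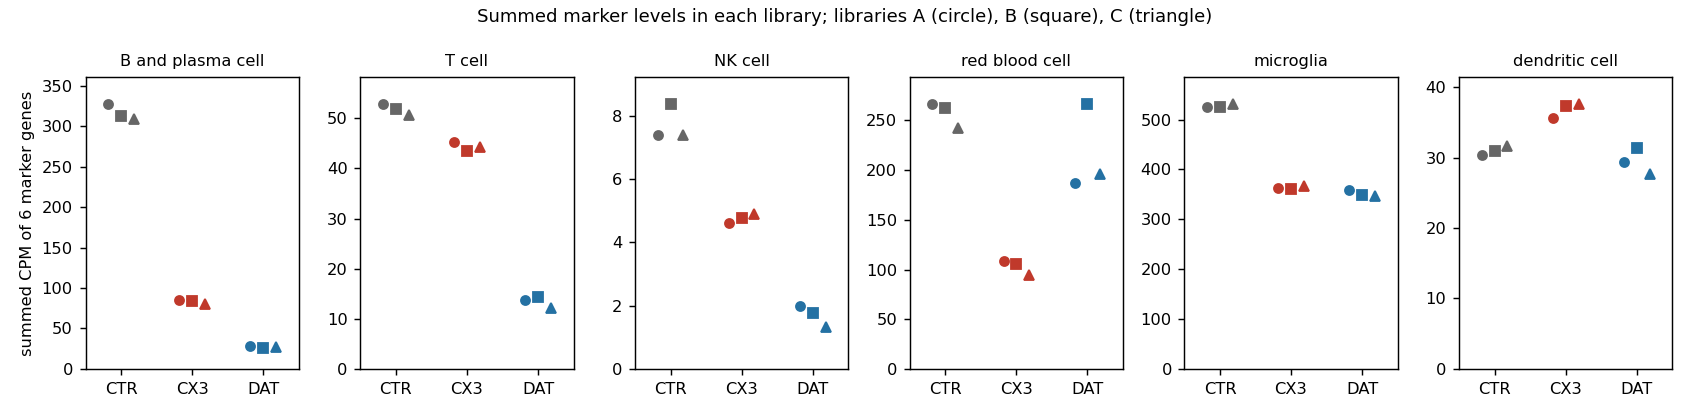
CPM summed over 6 marker genes (vertical axes, linear, from 0) of 6 cell types in each library; circles, squares and triangles are libraries A, B and C. The B and plasma cell sum, mostly Jchain, steps down from CTR to CX3 to DAT as Ly6c2 does, T cell markers are low in DAT as Plac8 is, and red blood cell markers are lowest in CX3.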

How the data were processed

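The 9 RNA libraries of nigral tissue were grouped by the vector and line in their labels. Per the labels and methods, the kit was TruSeq stranded mRNA with 76-base reads. The authors deposited raw, unnormalized read counts for every gene, after Trimmomatic and STAR, and the notes also list featureCounts, DESeq2 and mm10. All 55450 identifiers are in GENCODE M21 (GRCm38). Each strand column held about an equal share of reads (the reverse 49.8% to 49.9%), so counts of both strands together were used, in which a gene and an antisense partner cannot be told apart. No exon of the 10 genes overlaps another gene. Reads unassigned to any gene (30.5% to 35.9% of all reads) were left out.

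Counts were filtered with filterByExpr, scaled by TMM and tested with edgeR 4.0.16 (quasi-likelihood, one fit to all 9 libraries by group, two-sided, Benjamini-Hochberg over 20892 genes) in R 4.3.3, and checked on simulated counts. Genes were called at an adjusted p under 0.05. Alternatives were other normalizations, filters, strands, DESeq2 1.42.0, only the groups compared, a replicate block, a 2-fold rule and each library left out. CPM use TMM sizes. Ratios of summed counts have exact binomial 95% intervals. Python 3.11.15 with pandas 2.3.3 and scipy 1.17.1 did the rest.

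The 10 genes and all lists were chosen with earlier results of these data known. The text names all 10 genes and, of each other list, up to 4 genes called between CX3 and CTR with the largest difference. It adds relatives, ligands, receptors, neighbours and genes that went the other way from others of their list. Of 198 list genes, 197 matched by symbol and 1 by an older one (Chi3l1, now Chil1). Replicate letters do not pair the libraries: correlations of deviations were -0.244 to 0.0695 for the same letter and -0.209 to 0.262 for different letters.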

Additional observations from a re-analysis of the deposited data

Results flagged for a closer look

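Of the 9 tested genes, 5 differed between CX3 and DAT, the groups that share the Synuclein-expressing vector but not the line, in edgeR's test of that difference itself. CX3 was higher by a log2 fold change of 2.53 for Retnlg, 6.40 for Chil3, 1.86 for Ly6c2, 1.92 for Plac8 and 3.22 for Arg1. Over all genes tested, 27.6% were called higher and 31.3% lower in this comparison. Retnlg reached the level of the filter on low counts only in the CX3 libraries, where it is high. Seen from CTR, Chil3 was higher in CX3 and lower in DAT, Ly6c2 was lower in both but further in DAT, and Plac8 was called lower in DAT. Chil3, Ly6c2, Plac8 and Arg1 kept the call of higher in CX3 than in DAT under all 18 alternatives. Retnlg kept it under the 16 in which it could be tested (highest adjusted p = 0.0132), and it fell below the filter on low counts on the counts of either strand alone, where 4 of the 5 were called.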

How the results depend on the processing

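Of 27 comparisons of single genes, each tried under up to 18 alternatives, 25 kept their direction or absence of a call in all of them. The exceptions are Retnlg in CX3 minus CTR, lost in DESeq2's test (adjusted p = 0.0556) and without any CTR or CX3 library (0.0576 to 0.117), and Retnlg in DAT minus CTR, called without DAT library B (adjusted p = 0.0282). On the counts of either strand alone, the genes called lower numbered 2 in CX3 minus CTR and 4 in DAT minus CTR, since S100a8, Ngp and Ltf, as well as Retnlg, then fell below the filter on low counts. Under the 2-fold rule, the genes called over the whole table fell to 750 (278 higher, 472 lower) in CX3 minus CTR from 6367, to 3321 (810 higher, 2511 lower) in DAT minus CTR from 12520, and to 3212 (2300 higher, 912 lower) in CX3 minus DAT from 12311. With library size alone in place of TMM, 8916 genes were higher in CX3 minus DAT, in place of 5767, and this scaling moved the median log2 difference of all genes by -0.147 in DAT minus CTR and by 0.193 in CX3 minus DAT. The split of calls into higher and lower went from 2923 and 3444 to 3958 and 2766 in CX3 minus CTR, from 6686 and 5834 to 4890 and 8045 in DAT minus CTR, and from 5767 and 6544 to 8916 and 4444 in CX3 minus DAT, while all calls of the 10 genes stayed as they were. The letters do not pair the libraries, and with the letter as a replicate block, 5805, 12144 and 11955 genes were called in the 3 comparisons and the counts of the 10 genes called were unchanged. Leaving out 1 library gave 4638 to 8588 genes called in CX3 minus CTR and kept 5 of the 10 genes lower and 2 to 3 higher. Counts for the other lists moved by over 1.5 times in 103 of 1311 alternative values. The low counts of Ngp, Camp, Ltf and Retnlg limit what can be told between CX3 and DAT.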

Other observations

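Genes of cross-presenting dendritic cells stood beside Chil3 and Arg1 in CX3. Xcr1, the receptor by which these cells find T cells, had 74 counts in CTR, 352 in CX3 and 19 in DAT (log2 difference of CX3 from CTR 2.04, edgeR adjusted p = 1.02e-05), and Clec9a, their receptor for dead cells, had 107, 369 and 49 counts (1.58, adjusted p = 2.81e-06). Of the 6 dendritic cell markers, 3 were higher in CX3 than in CTR and 3 were not called. In the mast cell list, 4 of 5 tested genes were higher in CX3 than in CTR and 1 lower. Among them the protease gene Mcpt4 had 46 counts in CTR, 186 in CX3 and 85 in DAT (1.80, adjusted p = 0.000158) and Tpsb2 had 46, 170 and 92 (1.67, adjusted p = 0.000229). The summed mast cell level did not follow these genes, since Kit, which neurons express too, held most of it (19.2, 13.2 and 35.4 CPM).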
